A study of Rattus norvegicus with 6 samples.

Results

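Transcripts of 10 collagen genes were followed across the recovered cell classes of the rat spinal cord: the fibrillar chains Col1a1, Col1a2, Col3a1, Col5a1 and Col5a2, the basement membrane chains Col4a1, Col4a2 and Col18a1, and the beaded filament chains Col6a1 and Col6a2. The genes were taken by name from the 28692 or 28615 gene names of the 4 time-course tables and the 25054 names of the 2 injected tables. Earlier results of these data were known when they were chosen. All 10 were present in the time-course tables and 9 in the injected tables, which hold no row named Col1a2. Each of the 6 groups is 1 droplet library of counted molecules (UMIs) from dissociated cord of SD rats aged 6 to 8 weeks, with 5 animals per condition according to the labels. The groups are intact cord, cord collected 1, 3 or 7 days after a crush at thoracic level 10, and crushed cord injected with MPSS or with PBS. MPSS, at 10 mg/ml in PBS, and PBS alone were given 3 days after injury at 5 sites of 1 µl, and by the protocol these cords were collected 2 weeks after injury, although their titles name 3 days after injury, so the time point of these 2 libraries is uncertain. The treatment label of the intact library also names the crush; its title was followed. In every group the tissue was a 5-mm section digested with collagenase and trypsin, strained through 40-µm mesh and cleared of erythrocytes, so only cells that survived this are counted, and the animals of a group cannot be told apart within it.

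Fibrillar collagens assemble outside the cell into the rope-like fibres of scars, meninges and vessel walls. Type I is built from the Col1a1 and Col1a2 chains and type III from Col3a1 alone, while type V, from Col5a1 and Col5a2, starts fibres and limits their width. Col4a1 and Col4a2 wind together into the type IV network that underlies endothelium, pericytes and the glial surface of the cord, and Col18a1 encodes the basement membrane collagen from which endostatin is cut. Col6a1 and Col6a2 form, with a further chain, the type VI microfilaments that link fibres to cell surfaces. In injured cord, fibroblasts and cells of the vessel wall are known sources of these chains.

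Col4a1 and Col4a2 lie head to head, and the stretch that separates their starts is shown because the levels of both chains are compared throughout. In the RefSeq annotation of rat assembly GRCr8 the starts are 77 bases apart on chromosome 16, on opposite strands. Head-to-head starts at most this far apart make up 0.876% of 33447 neighbouring pairs in the promoter table. The 76 bases at chr16:84885521-84885596, read on the + strand towards Col4a1, have a GC content of 78.95%, and the capitals mark the match to GGGCGG on the other strand.
Col4a2 to Col4a1: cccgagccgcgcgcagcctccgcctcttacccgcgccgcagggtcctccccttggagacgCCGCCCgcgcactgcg
The promoters of Col1a2, a chain of type I, and of Col18a1 are shown as examples that hold different motifs. They are the 250 bases before each start, at chr4:33518307-33518556 and chr20:11473395-11473644, both on the + strand.
Col1a2: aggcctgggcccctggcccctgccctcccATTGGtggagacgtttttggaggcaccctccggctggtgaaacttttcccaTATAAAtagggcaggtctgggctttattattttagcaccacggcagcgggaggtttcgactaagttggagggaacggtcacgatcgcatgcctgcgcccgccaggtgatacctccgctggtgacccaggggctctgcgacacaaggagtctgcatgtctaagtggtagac
Col18a1: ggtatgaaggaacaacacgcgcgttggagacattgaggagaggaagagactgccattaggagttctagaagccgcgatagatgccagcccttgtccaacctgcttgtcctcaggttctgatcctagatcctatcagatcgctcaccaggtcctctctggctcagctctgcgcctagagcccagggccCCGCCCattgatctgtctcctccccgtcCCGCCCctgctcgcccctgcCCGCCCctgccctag
In Col1a2 the capitals mark CCAAT on the other strand at -221 to -217 and TATAAA at -170 to -165, where negative numbers count bases before the start. In Col18a1 they mark 3 matches to GGGCGG on the other strand. Among the other members with a promoter, Col5a1 held GGGCGG alone, and Col4a1 and Col4a2 held both CCAAT and GGGCGG. Col5a2 and Col6a1 held none of the 3 motifs. The motifs thus do not divide fibrillar from basement membrane chains. Among all 33469 windows of this length, on either strand, 34% hold CCAAT, 12.9% hold TATAAA and 30.5% hold GGGCGG. A match describes letters only. The table held 7 of the 10 members; Col1a1, Col3a1 and Col6a2 are named without a sequence. Col3a1 and Col5a2 are neighbours on chromosome 9, as Col4a1 and Col4a2 are on chromosome 16.

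The libraries held between 1377 and 9263 kept cells and between 9661552 and 72515788 UMIs, with median depths per cell from 3090 in intact to 10417 in MPSS. Pairs of libraries shared 5 to 91 cell barcodes, at most 1.67% of the smaller library. Cells were grouped into clusters without any collagen gene, and a cell entered a class only if its own markers, collagens excluded, placed it there. This gave 34, 163, 111 and 97 fibroblasts in intact, day 1, day 3 and day 7, 14, 35, 78 and 63 mural cells (pericytes and smooth muscle), and 1131, 1129, 1331 and 1225 endothelial cells. The PBS and MPSS libraries gave 123 and 164 fibroblasts, 13 and 17 mural cells and 34 and 32 endothelial cells. All 15 fibroblast markers had UMIs in the fibroblasts of every library. Their summed level was lower after injury, at 30638, 8168, 6256 and 17114 counts per 1000000 UMIs of the class (CPM) from intact to day 7. Time-course and injected libraries use different gene annotations and were never compared by level. With 1 library per group there is no replicate check and no test; brackets give 95% intervals for counting error only, and "at least 2-fold" is a description of size among genes with at least 10 UMIs over both sums.

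Fibroblasts were the main place where the fibrillar chains were counted, although they made up only 1.23% of intact cells and 1.20 to 2.22% of cells after injury. They held 91.7% [87.4 to 94.9] of the Col1a1 UMIs of the intact library, 76.8% at day 1, 73.1% at day 3 and 56.3% at day 7. For Col3a1 the share was 91.1% in intact, 77.4% at day 1, 73.5% at day 3 and 84.9% at day 7, so the chains differed mainly at day 7. For Col1a1 most of the rest lay in cells that no gate took, 22.8% at day 3 and 39.0% at day 7. Nearly all of those UMIs came from the fibroblast cluster itself. Its 27 day 7 cells that missed the gate carried 1394 Col1a1 UMIs beside 2019 in the 97 cells that passed, and 925 of the 1394 lay in 1 cell. The type IV chains were counted elsewhere: endothelial cells held 88.0% of Col4a1 UMIs in intact cord, 78.5% at day 1, 74.0% at day 3 and 61.7% at day 7. The fibroblast share of Col4a1 was 0.841% in intact and 16.0% at day 7. Col18a1 had no single main source, with 45.8% of its 24 intact UMIs in endothelial cells, and at day 7 31.8% in fibroblasts, 18.5% in endothelial and 16.6% in mural cells. These shares depend on how many cells of each class were recovered, which the next comparisons, made per UMI of the class, do not.

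**Figure D1:**
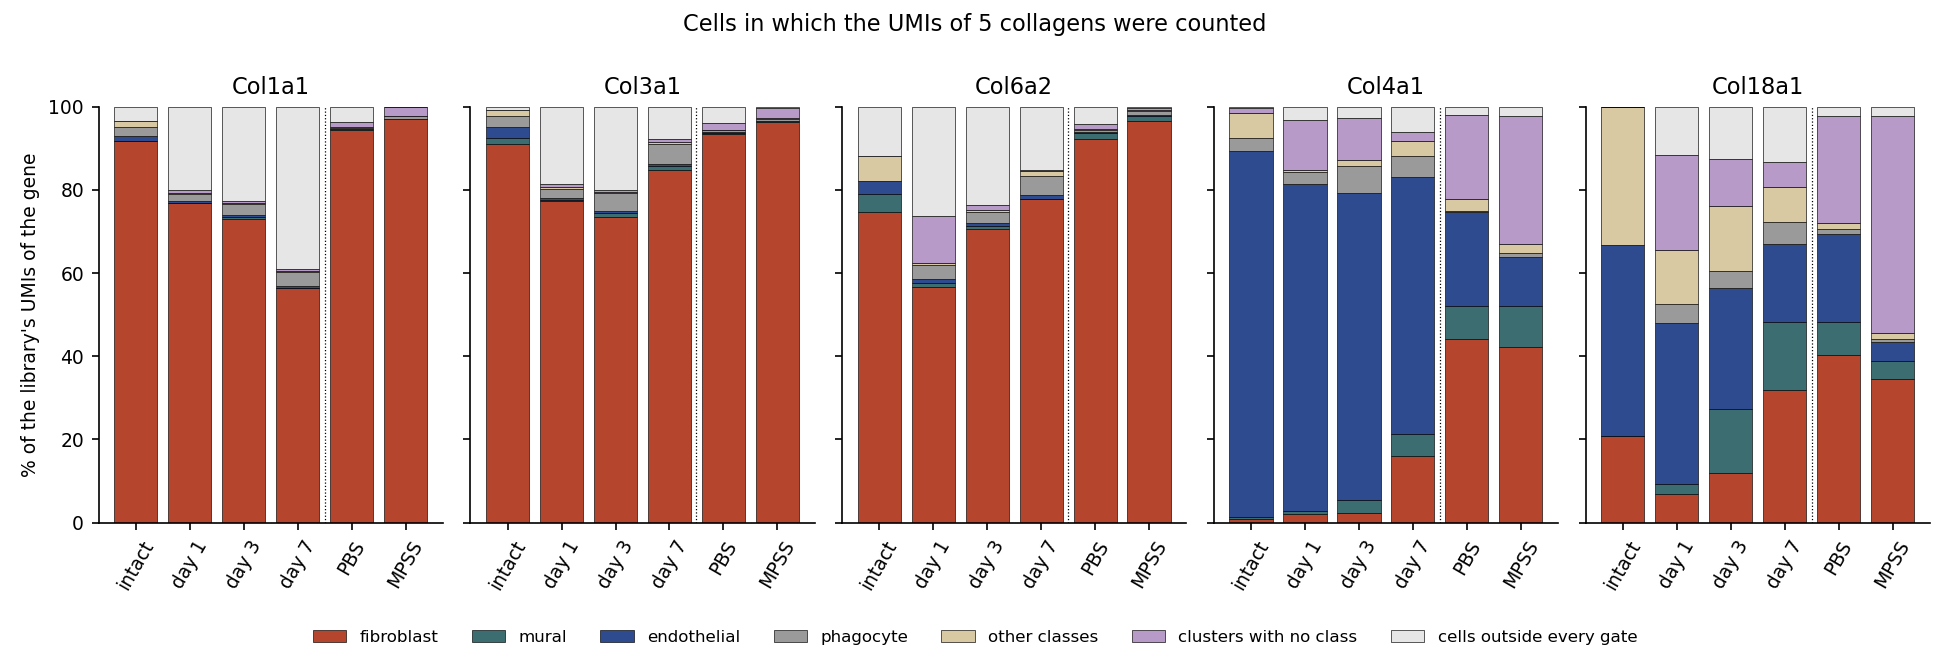
Stacked bars give, for 5 collagens and each library, the percent of the gene's UMIs counted in each class, in clusters without a class and in cells outside every gate. Fibroblasts hold most Col1a1 UMIs in all 6 libraries, from 56.3% at day 7 to 97.0% in MPSS, while endothelial cells hold 61.7 to 88.0% of Col4a1 in the 4 time-course libraries.

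Ordered by level, fibroblasts stood first for Col1a1 in every library, with no overlap of intervals with the next class of at least 20 cells. Thinned to 1000 UMIs per cell, 50% of intact fibroblasts, 53.4% at day 1, 75.7% at day 3 and 82.5% at day 7 had a Col1a1 UMI. Before thinning the numbers with a UMI were 30 of 34, 147 of 163, 106 of 111 and 95 of 97. Phagocytes, which should lack the transcript, gave 0.157 to 0.571% after thinning at median depths of 3284 to 7591 UMIs, against 4526 to 11922 in fibroblasts. Endothelial cells gave 0 of 1131 and 0 of 1129 in intact and day 1 and 0.451 and 0.408% at days 3 and 7, with intervals that overlapped those of phagocytes. For Col4a1 the order among classes of at least 20 cells changed with time. Endothelial cells stood first in intact at 184 CPM, but the 14 intact mural cells, at 167 CPM from 5 UMIs, were too few to be ordered. At day 1 endothelial and mural cells, at 951 and 778 CPM, could not be separated by their intervals. Mural cells led at day 3 with 504 CPM, and at day 7 mural cells and fibroblasts, at 442 and 344 CPM, overlapped and both lay above endothelial cells at 167 CPM.

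**Figure D2:**
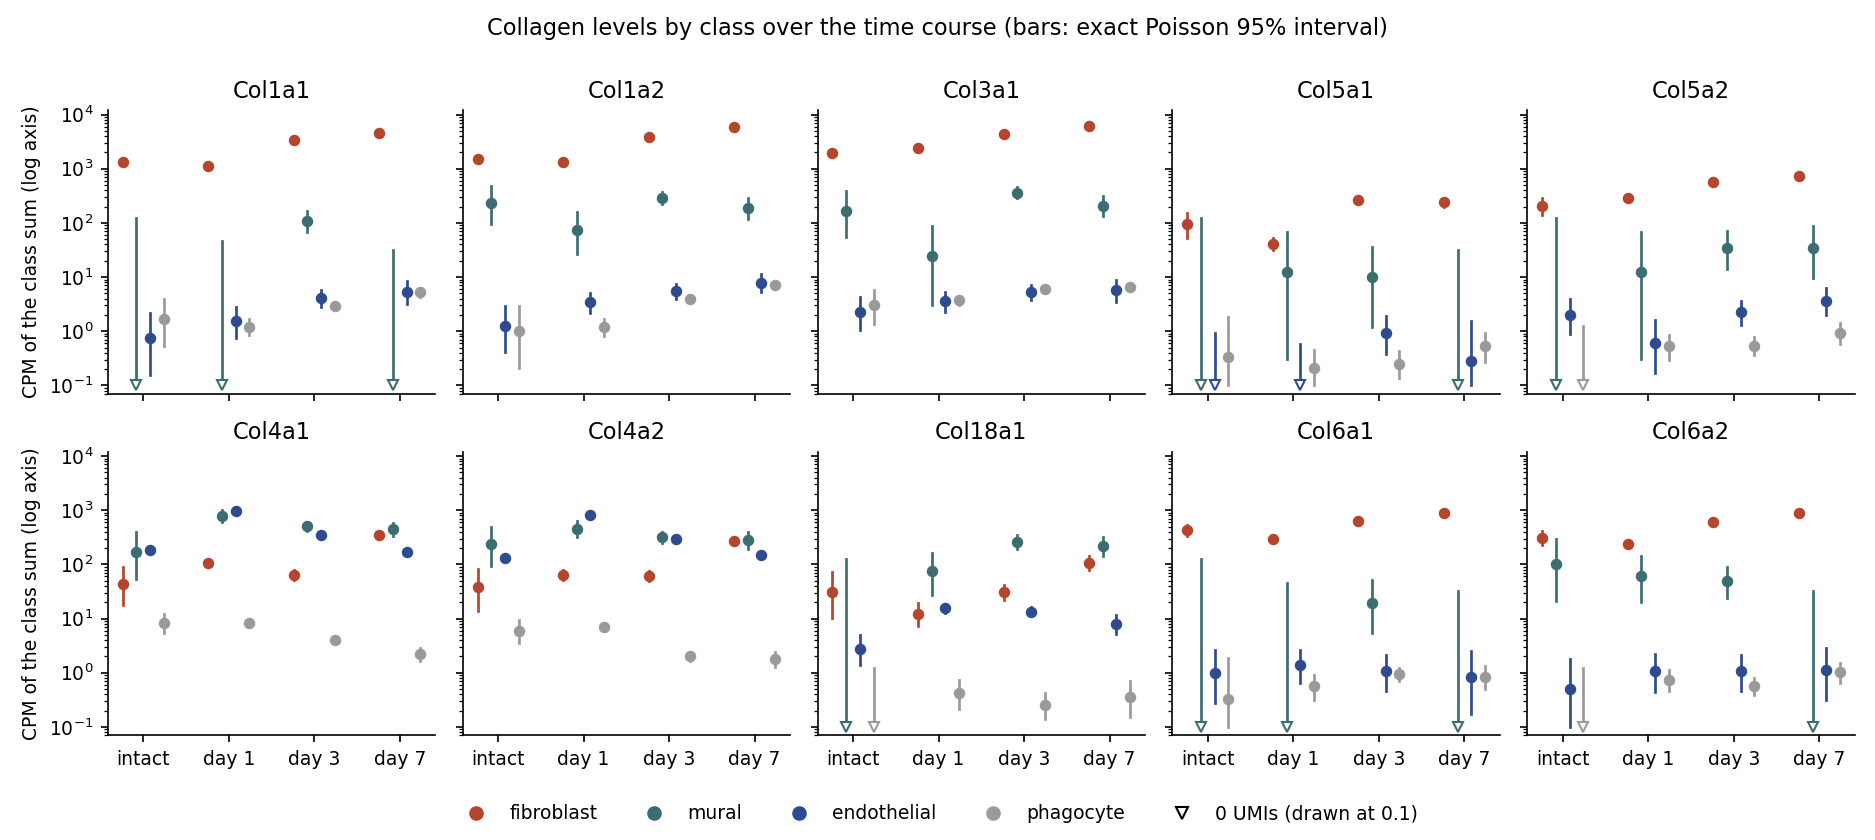
Each panel is 1 collagen; points give the CPM of the summed class (log axis) in intact, day 1, day 3 and day 7, bars the exact Poisson 95% interval, and open triangles classes with 0 UMIs, drawn at 0.1. The fibrillar and type VI chains are highest in fibroblasts, reaching 6052 CPM for Col3a1 at day 7, and the type IV chains peak in endothelial cells at day 1.

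In fibroblasts the fibrillar chains were near their intact levels at day 1 and higher at days 3 and 7. Col1a1 stood at 1318 CPM in intact [1146 to 1509], 1113 at day 1 [1059 to 1168], 3355 at day 3 [3257 to 3454] and 4542 at day 7 [4346 to 4745]. Its ratio to intact was thus 0.844 [0.730 to 0.979], 2.54 [2.21 to 2.94] and 3.44 [2.99 to 3.99]. The day 1 difference flips with the scaling, from a log2 ratio of -0.24 to 0.02 with TMM factors. Col1a2, the partner chain, ran from 1500 CPM in intact through 1346 and 3922 to 5854 at day 7, which is 3.90-fold above intact [3.42 to 4.47]. Col3a1 was already slightly above intact at day 1, at 2447 against 1984 CPM, and stood at 4335 and 6052 CPM later, 2.19-fold [1.95 to 2.46] and 3.05-fold [2.71 to 3.44] higher. The rarer type V chains followed the same late course but parted at day 1. Col5a2 stood at 207, 293, 576 and 742 CPM, whereas Col5a1 was lower at day 1, with 94.2, 41.3, 263 and 239 CPM. The intervals of days 3 and 7 lay above that of intact for all 5 fibrillar chains. The 3 comparisons share the intact library, so its 34 cells enter each of them.

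Counted by size, 1 member was at least 2-fold higher and 2 were at least 2-fold lower in fibroblasts at day 1, where 13.5% and 20.2% of 9084 genes were past the same bounds. At day 3 the 5 fibrillar chains were higher and no member was lower, against 15% and 18.8% of 8883 genes. At day 7 all 10 members were at least 2-fold higher and none lower, against 15.1% and 10.6% of 6328 genes. The median log2 ratio of the members was -0.20, 1.05 and 1.78 at days 1, 3 and 7, beside -0.13, -0.07 and 0.03 over all genes tested. Taking the whole fibroblast cluster without the per-cell gate moved the day 7 log2 ratio of Col1a1 from 1.78 to 2.37 and of Col1a2 from 1.96 to 2.33, with the cell of 925 UMIs included. Another day 7 cell held 18.7% of the gated Col1a1 UMIs, but none of the 5 fibrillar calls at days 3 and 7 was lost without the highest cell.

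The type VI chains were past 2-fold at day 7 only. Col6a1 stood at 427, 289, 643 and 891 CPM from intact to day 7 and Col6a2 at 314, 239, 614 and 880 CPM. Both were at or below their intact level at day 1 and above it at day 7, 2.09-fold [1.61 to 2.74] and 2.80-fold [2.08 to 3.84]. The basement membrane chains of fibroblasts were rare in intact cord, with 7 Col4a1, 6 Col4a2 and 5 Col18a1 UMIs in 34 cells. Col4a1 stood at 44.0 CPM in intact, 107 at day 1, 63.7 at day 3 and 344 at day 7. Col4a2 stood at 37.7, 64.0, 61.4 and 270 CPM and Col18a1 at 31.4, 12.4, 30.7 and 108 CPM. At day 7 their ratios to intact were 7.83 [3.71 to 19.8], 7.17 [3.20 to 19.9] and 3.44 [1.38 to 11.1], wide because of the few intact UMIs. Endothelial markers in the same fibroblasts summed to 1733, 648, 275 and 850 CPM from intact to day 7, with 13 or 14 of 15 seen in each library, so they were highest in intact but, like the type IV chains, higher at day 7 than at day 3. Mural markers summed to 477, 118, 392 and 650 CPM, with 5 of 15 seen in intact and 13 in each later library. Phagocyte markers summed to 1588, 418, 888 and 1831 CPM. The part of any of these cell types in the result was not tested.

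**Figure D3:**
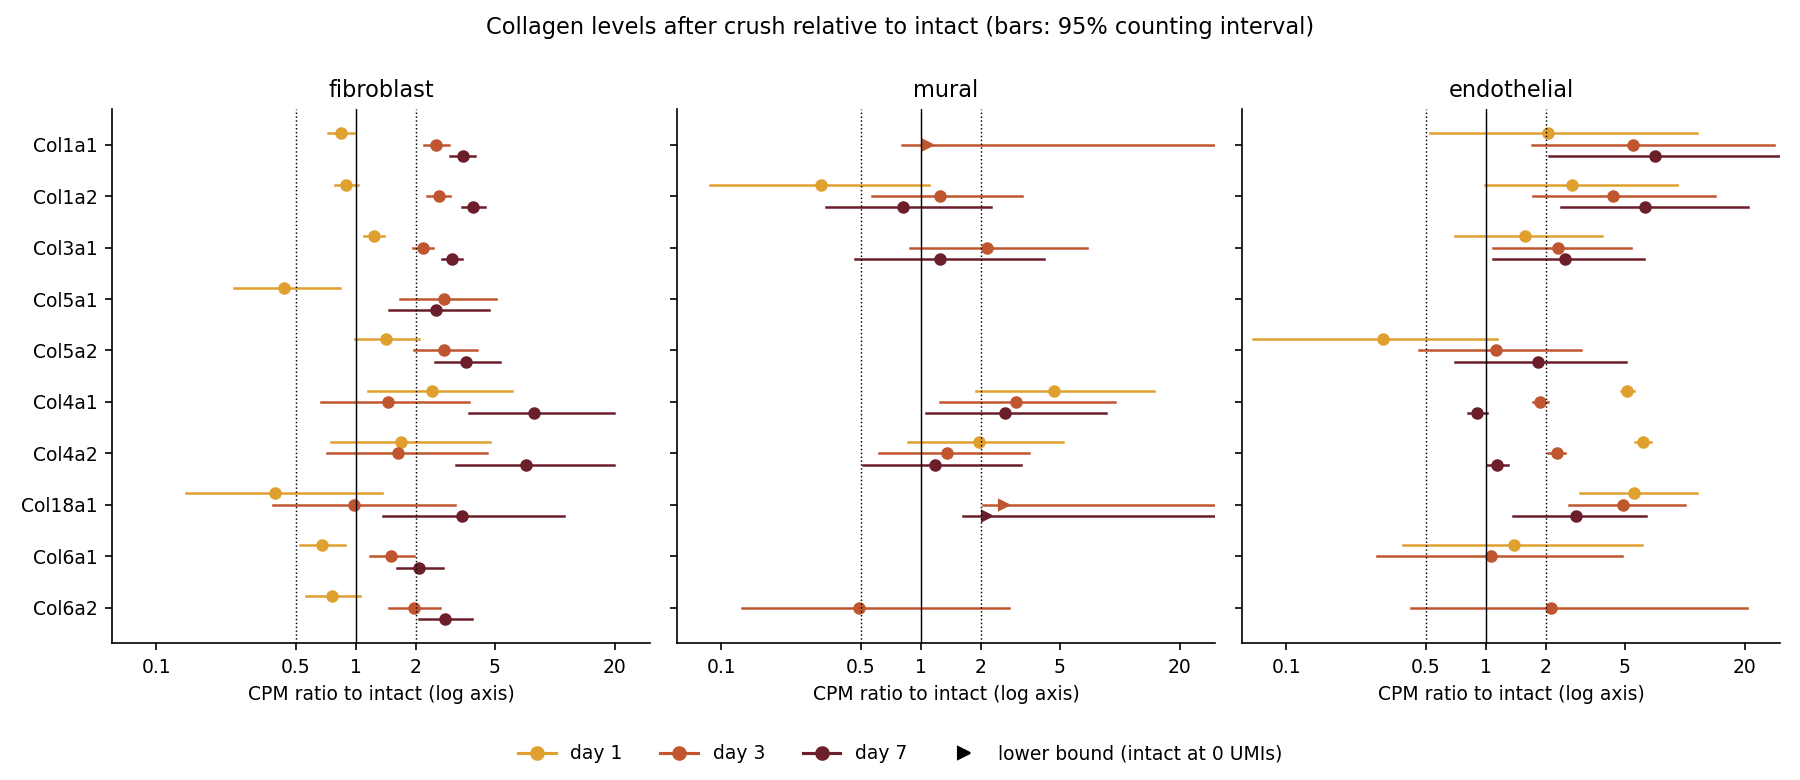
Points give the CPM ratio of day 1, 3 or 7 to intact (log axis) for each collagen with at least 10 UMIs over both sums, bars its 95% counting interval (drawn no further than 0.06 and 30), arrowheads a lower bound where intact had 0 UMIs, and dotted lines 2-fold differences. In fibroblasts all 10 day 7 points lie above 2, and in endothelial cells the type IV chains lie higher at day 1, at 5.16 and 6.18, than at days 3 and 7.

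The cells of the fibroblast class were uneven in what they carried. The fibrillar chains together took 0.510% of all fibroblast UMIs in intact cord, 0.524% at day 1, 1.25% at day 3 and 1.74% at day 7. The median cell stood at 3766, 4702, 6629 and 12987 CPM of summed fibrillar chains, and at day 7 single cells ranged from 446 to 117909 CPM. At day 7 the 10% of cells with the most held 32.8% of the fibrillar UMIs. For the basement membrane chains the top 10% held 75.1%, and 52 of 97 cells had any such UMI. After thinning, the share of fibroblasts with a Col4a1 UMI was 0 in intact, 8.59% at day 1, 10.8% at day 3 and 11.3% at day 7. The day 7 share is thus close to those of days 1 and 3 although the day 7 level was higher.

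Ratios of UMIs between chains show how evenly they moved; their absolute size also depends on how well each 3′ end was captured. Col1a1 to Col1a2 stayed within 0.776 to 0.879 in fibroblasts from intact to day 7. Col1a1 to Col3a1 was lower at day 1, at 0.455 [0.429 to 0.482], than in intact, at 0.665 [0.556 to 0.794], or at days 3 and 7, at 0.774 and 0.751. The type V pair also dipped at day 1: Col5a1 to Col5a2 was 0.455 in intact, 0.141 [0.106 to 0.185] at day 1, 0.456 at day 3 and 0.321 at day 7. The type VI pair went from 1.36 [0.93 to 2.00] in intact to 1.01 [0.879 to 1.17] at day 7. In endothelial cells Col4a1 to Col4a2 was 1.41 [1.26 to 1.58] in intact, 1.17 at day 3 and 1.12 [0.990 to 1.26] at day 7. Col1a1 to Col1a2 at day 3 was 0.757 in phagocytes, 0.373 [0.218 to 0.618] in mural cells and 0.167 in oligodendrocyte precursors, from 2 and 12 UMIs. Ependymal cells, which line the central canal, also carried less Col1a1 than Col1a2. They carried 18.7 CPM of Col1a2 but only 1.07 CPM of Col1a1 in intact cord, and 32.6 against 9.43 at day 3.

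Genes that serve these chains were read in the same fibroblast sums, and each count below stands beside shares over all genes of 13.5% higher and 20.2% lower at day 1, 15% and 18.8% at day 3, and 15.1% and 10.6% at day 7. Of the genes for folding and modification in the endoplasmic reticulum, 4 of 20 measured were at least 2-fold higher and 1 lower at day 1, 11 of 20 and 1 at day 3, and 7 of 19 and 0 at day 7. Fkbp10, a prolyl isomerase of procollagen, stood at 31.4 CPM in intact and 109, 198 and 140 after injury. P4hb, a subunit of prolyl 4-hydroxylase, went from 157 to 656 CPM at day 3 and 396 at day 7, and Creb3l1, a transcription factor of secretory cells, was 2.94-fold higher at day 1 [1.23 to 9.19]. Among genes for processing and crosslinking, 2 of 10 were higher and 2 lower at day 1, 4 of 10 and 1 at day 3, and 6 of 11 and 1 at day 7. Lox, the lysyl oxidase that starts crosslinks, went from 69.1 CPM to 530, 630 and 362. Pcolce2, an enhancer of procollagen C-proteinase, went the other way, at 578 CPM in intact and 70.2, 16.5 and 94.5 later.

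Basement membrane partners were mostly lower in fibroblasts early on, with 1 of 7 at least 2-fold higher and 5 lower at day 1, 0 of 11 and 7 at day 3, and 2 of 9 and 0 at day 7. Nid1, which links laminin to type IV collagen, stood at 377 CPM in intact and 150, 139 and 259 after injury. The laminin chains Lamc1 at day 1 and Lamb2 at day 3 were 0.431 and 0.465 of intact, and Lamc1 at day 7 was at 1.48 [0.833 to 2.80]. Collagen receptors and uptake genes counted 0 of 8 higher and 5 lower at day 1, 1 of 9 and 4 at day 3, and 0 of 7 and 2 at day 7. Ddr2, a receptor kinase for fibrillar collagen, stood at 214, 107, 56.2 and 162 CPM, and Antxr1 at 119 CPM in intact and 36.5 and 45.0 at days 1 and 3. Mrc2, an endocytic collagen receptor, was at 1.90 of intact at day 7 [0.956 to 4.19]. Of the other collagens, 2 of 10 were higher and 5 lower at day 1, 5 of 12 and 4 at day 3, and 8 of 12 and 0 at day 7. Col8a1, a short-chain collagen of vessel walls, went from 132 CPM to 552, 1246 and 677. Col6a3, the further chain of type VI, was 6.20-fold higher at day 7 [3.29 to 13.2], while Col14a1 at day 1 and Col15a1 at day 3 were at 0.305 and 0.0842 of intact. The median log2 ratio of the basement membrane partners was -1.21 and -1.07 at days 1 and 3, against -0.13 and -0.07 over all genes.

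In endothelial cells the type IV chains were highest at day 1 and close to intact by day 7. Col4a1 stood at 184 CPM in intact [171 to 198], 951 at day 1 [928 to 975], 347 at day 3 [334 to 361] and 167 at day 7 [154 to 181]. Col4a2 stood at 131, 810, 297 and 150 CPM. The day 1 ratios were 5.16 [4.78 to 5.58] and 6.18 [5.65 to 6.78], and the day 7 ratios 0.906 [0.812 to 1.01] and 1.14 [1.01 to 1.29]; for Col4a1 the day 7 direction flips with TMM factors, to a log2 ratio of 0.03. The share of endothelial cells with a Col4a1 UMI after thinning moved with the level, at 16.3, 55.1, 20.2 and 14.04% from intact to day 7, against 0.265 to 0.965% of phagocytes. At day 1, 1097 of 1129 endothelial cells carried a basement membrane UMI, and the top 10% of cells held 35.9% of these UMIs. Col18a1 was far rarer, at 2.77, 15.5, 13.5 and 7.91 CPM, and stayed above intact at day 7, 2.86-fold [1.38 to 6.36]. At day 3 the type IV ratios depended on the summary: Col4a1 was at a log2 ratio of 0.91 by summed CPM, 1.11 with TMM factors and 0.495 as the mean over cells, and Col4a2 at 1.18, 1.39 and 0.86.

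Of the 8 members measured in endothelial cells at day 1, 5 were at least 2-fold higher and 1 lower, against 12.8% and 14% of 11997 genes. At day 3 these counts were 6 and 0 of 9, against 8.33% and 9.99% of 12168 genes. At day 7 they were 4 and 0 of 7, against 5.01% and 7.85% of 11514. Several of these calls rest on very few UMIs, mostly of fibrillar chains. The lower call at day 1 is Col5a2, from 4 UMIs against 8 in intact, and Col6a2 at day 3 had 8 against 2. Col1a1 stood at 0.756, 1.55, 4.14 and 5.37 CPM in endothelial cells, from 3 UMIs in intact to 31 at day 3, beside 1.67, 1.22, 2.98 and 5.21 CPM in phagocytes. Col3a1 gave 2.27, 3.56, 5.21 and 5.65 CPM beside 3.00, 3.76, 6.14 and 6.53 in phagocytes. For Col1a1 and Col3a1 the intervals of the 2 classes overlapped in each library. Col1a2 at day 1, at 3.40 CPM [2.13 to 5.15], lay above the 1.18 [0.820 to 1.66] of phagocytes, and its intervals overlapped at the other times. Fibroblast markers in the endothelial cells summed to 21.9 to 40.7 CPM in the 4 libraries and mural markers to 111 to 160 CPM, while endothelial markers summed to 18624 to 24848 CPM. Phagocyte markers in them summed to 981, 593, 1409 and 2136 CPM from intact to day 7, and their part in these values was not tested.

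The endothelial class was made of different clusters at different times, and a cluster filled mostly by 1 library may reflect that library. Cluster 6, led by Gkn3 and Cxcl12, held 93.5% of intact endothelial cells, cluster 9, led by Apln, Ackr1 and Lrg1 and with both type IV chains among its leading genes, held 99.1% of day 1, and cluster 1, led by Itm2a, Spock2 and Foxq1, held 77.0% of day 3 and 85.3% of day 7. Within the day 3 library the 144 cells of cluster 9 stood at 713 CPM of Col4a1 [672 to 756], the 127 cells of cluster 6 at 194 [160 to 233] and the 1025 cells of cluster 1 at 237 [223 to 251]. Its 35 cells of cluster 29, led by the cell cycle genes Ube2c and Prc1, stood at 478 CPM. Col18a1 divided the clusters otherwise. At day 3 it stood at 41.0 CPM in cluster 9, 37.5 in cluster 6 and 1.64 in cluster 1, and at day 7 at 42.9 in cluster 6 and 1.01 in cluster 1. In intact, cluster 6 stood at 2.93 CPM of Col18a1, below those levels, while its Col4a1 stood at 184, 194 and 199 CPM in intact, day 3 and day 7. Cluster 6 held 93.5% of endothelial cells in intact but 9.54% at day 3 and 14.2% at day 7. Its values therefore compare nearly the whole intact class with a small part of the later ones.

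**Figure D4:**
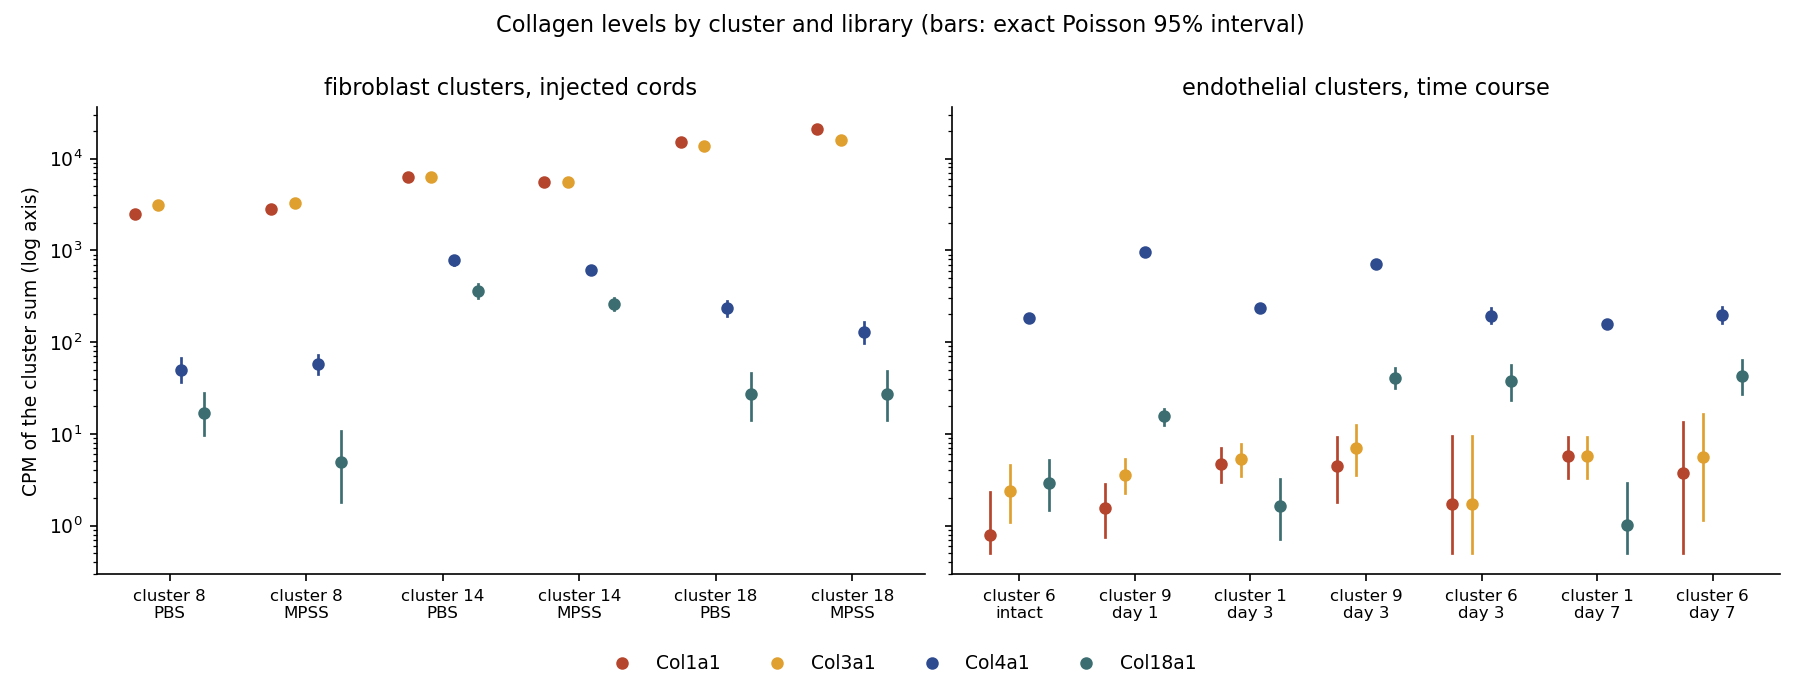
Points give the CPM (log axis) of Col1a1, Col3a1, Col4a1 and Col18a1 in the fibroblast clusters of the injected cords (left) and the endothelial clusters of the time course (right), bars the exact Poisson 95% interval, with lower ends drawn no lower than 0.5. Cluster 14 carries the most Col4a1 and Col18a1 and cluster 18 the most Col1a1 in both injected libraries, and endothelial cluster 9 carries the most Col4a1 at day 3.

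Endothelial genes that serve type IV collagen were read in the same sums, beside shares over all genes of 12.8% higher and 14% lower at day 1, 8.33% and 9.99% at day 3, and 5.01% and 7.85% at day 7; counts such as 1 of 18 are near these shares. Of the folding genes, 8 of 20 were at least 2-fold higher and 1 lower at day 1, 4 of 21 and 1 at day 3, and 1 of 18 and 1 at day 7. Fkbp10 went from 1.76 CPM to 19.2 and 20.04 at days 1 and 3, and Colgalt1, a collagen galactosyltransferase, was 3.22-fold and 2.64-fold higher. P4ha1 and P4ha2, catalytic subunits of prolyl 4-hydroxylase, were at 0.501 and 0.485 of intact at day 7. Basement membrane partners counted 5 of 14 higher and 4 lower at day 1, 2 of 13 and 1 at day 3, and 0 of 12 and 1 at day 7. Nid1 stood at 17.9, 108, 57.1 and 34.8 CPM, the laminin chain Lamb1 was 14.3-fold higher at day 3 [3.78 to 121] from 2 intact UMIs, and Lamc1 was at 1.49 of intact at day 7. Egflam, a matrix protein, was at 0.174 of intact at day 1. Processing genes counted 2 of 5 higher at day 1, 2 of 6 at day 3 and 1 of 5 at day 7, with none lower. They included the procollagen C-proteinase Bmp1, 3.24-fold higher at day 1, the peroxidase Pxdn, which crosslinks type IV collagen, 3.25-fold at day 3, and Loxl2, 2.40-fold at day 7. Sparc, a collagen-binding matrix protein, was at 1.60 and 1.09 of intact at days 1 and 7. Receptors counted 3 of 9 higher and 4 lower at day 1 and 0 of 8 and 2 at both later days. Itgb1, the shared beta chain of collagen integrins, was 2.37-fold higher at day 1, Lair1, an inhibitory collagen receptor of leukocytes, was at 0.464 of intact, and Itga1 was at 0.575 and 0.651 of intact at days 3 and 7. Of 4 other collagens, 1 was higher and 1 lower at day 1, 0 and 2 at day 3, and 0 and 0 at day 7.

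Mural cells gave few UMIs, and their intact sum of 14 cells limits every ratio. Col4a1 stood at 167 CPM in intact from 5 UMIs, 778 at day 1, 504 at day 3 and 442 at day 7, which is 4.66-fold [1.89 to 14.8], 3.02-fold [1.25 to 9.49] and 2.65-fold [1.06 to 8.50] above intact. Clustering at the lower resolution of 0.5 left 3, 5, 42 and 35 mural cells and turned the day 3 and day 7 log2 ratios of Col4a1 to -0.19 and -1.68. The 42 and 35 cells match in number the smooth muscle-type cells of those days, described below, so these values may leave out the pericyte-type cells. Col18a1 had 0 UMIs in intact, 6 at day 1, 53 at day 3 and 25 at day 7, or 0, 74.1, 262 and 217 CPM. Against the floor of 3 counts it was at least 2.61-fold higher at day 3 and at least 2.16-fold higher at day 7, and -0.10 as a day 3 log2 ratio at the lower resolution. Col4a2 stood at 234, 457, 316 and 277 CPM with overlapping intervals throughout. The type I chain Col1a1 was seen only at day 3, with 22 UMIs of which 90.9% lay in 1 cell, whereas Col1a2 was seen at all times, at 234, 74.1, 292 and 191 CPM.

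Counted by size, 1 of 3 measured members was higher and 1 lower in mural cells at day 1, against 20.4% and 14.2% of 1865 genes. At day 3 there were 3 and 1 of 7, against 12.6% and 16.4% of 3436 genes, and at day 7 there were 2 and 0 of 5, against 15.7% and 13.3% of 2244. These counts rest on few members, and most of them changed with the settings tried. The class joined pericyte-type cells (cluster 25, led by Vtn, Higd1b and Rgs5) and smooth muscle-type cells (cluster 28, led by Acta2, Myl9 and Tagln). Cluster 28 made up 53.8 and 55.6% of mural cells at days 3 and 7. Cluster 25 alone stood at 53.0 CPM of Col4a1 in intact from 1 UMI, 786 at day 1, 791 at day 3 and 968 at day 7, while cluster 28 stood at 318 and 113 at days 3 and 7. The Col4a1 ratios of the mural class thus mix pericyte-type and smooth muscle-type cells with unlike levels. The partner lists had 1 to 11 measured genes each in mural cells. Sparc stood at 1035 CPM in intact and 2703, 2673 and 1448 later, and Ppib, a prolyl isomerase, at 301, 593, 608 and 442. Serpinh1, the collagen chaperone, stood at 568, 1024, 800 and 416 CPM, and Itgb1 at 701, 605, 647 and 330.

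A further cluster could not be assigned, since it had endothelial markers in most cells and mural genes such as Rgs5 and Vtn among its leading ones. Its 11, 80, 103 and 22 cells stood at 154, 1084, 324 and 152 CPM of Col4a1 from intact to day 7. Oligodendrocyte precursors (OPC) carried Col18a1 at 33.1 CPM in intact from 3 UMIs, 40.0 at day 1, 37.1 at day 3 and 16.2 at day 7. Their Col4a1 stood at 9.48 CPM at day 3 and 17.9 at day 7, from 11 UMIs each. Ependymal cells carried Col4a1 at 25.1, 27.4 and 23.1 CPM in intact, day 3 and day 7; only 2 were gated at day 1. Phagocytes stood at 8.33, 8.11, 4.10 and 2.21 CPM of Col4a1 and at most at 0.418 CPM of Col18a1.

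Across 30 class sums of the time course, the genes whose log2 CPM ran most like that of Col1a1 were, besides the member Col6a1 (Pearson r = 0.979), Wif1 (0.970), Fbn1 (0.969), Krtdap (0.969), Scara3 (0.968) and Itgbl1 (0.962). For Col4a1 the closest of 12605 genes was Col4a2 at 0.961, then Lama4 (0.913), Igfbp7 (0.913), Tnks1bp1 (0.906), Arhgap29 (0.901) and Foxc1 (0.896). The profile of Col6a1 was closest to Scara3 (0.986), Fbn1 (0.985), Krtdap (0.982), Itgbl1 (0.98), the member Col1a1 and Wnt9a (0.977). Col18a1 ran most like Mylk (0.910), Mfge8 (0.902), Ppp1r12b (0.896), Marveld1 (0.891) and Tpm2 (0.889), of which Mylk and Tpm2 are contractile genes. The sums share libraries and depth, so these values describe likeness only.

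The injected cords ask what MPSS does beside PBS. In fibroblasts the collagens were close between them. Col1a1 stood at 6745 CPM in PBS [6626 to 6867] and 7022 in MPSS [6914 to 7132], a ratio of 1.04 [1.02 to 1.07], and the direction flips without the highest cell, to a log2 ratio of -0.02, and as the mean over cells, to -0.12. Col3a1 stood at 6616 and 6371 CPM, a ratio of 0.963 [0.94 to 0.987] that TMM factors turn to a log2 ratio of 0.04, and Col6a2 at 852 and 796, a ratio of 0.935 [0.873 to 1.00]. Col4a1 stood at 249 and 226 CPM and Col18a1 at 90.0 and 80.9, with ratios of 0.907 [0.798 to 1.03] and 0.899 [0.724 to 1.12]. The rarer Col5a2, at 99.5 and 72.2 CPM, and Col6a1, at 101 and 74.8, were lower in MPSS at 0.725 [0.583 to 0.901] and 0.743 [0.599 to 0.921]. Col5a1, at 16.8 and 17.1 CPM, and Col4a2, at 6.15 and 5.25 CPM from 11 and 12 UMIs, could not be separated from a ratio of 1. Several chain ratios in these fibroblasts were unlike those of time-course fibroblasts. Col4a1 to Col4a2 was 40.45 in PBS and 43 in MPSS, against 1.04 to 1.67. Col6a1 to Col6a2 was 0.118 and 0.0939 against 1.01 to 1.36, and Col3a1 to Col5a2 66.5 and 88.3 against 7.525 to 9.58. Col5a1 to Col5a2, at 0.1685 and 0.2364, lay within its time-course range. The 2 sets use different gene annotations, whose part in these chain ratios was not tested. None of the 9 members was at least 2-fold higher or lower, where 3.43% and 5.43% of 9638 genes were. Phagocyte markers in these fibroblasts summed to 261 CPM in PBS and 901 in MPSS, and their part in the ratios was not tested.

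The partner genes of injected fibroblasts are counted beside 3.43% higher and 5.43% lower over all genes, and counts this small cannot be set apart from those shares. None of 17 folding genes, 0 higher and 1 lower of 11 processing genes, 0 and 2 of 11 basement membrane partners, 0 and 1 of 10 receptors and 0 and 1 of 12 other collagens were past 2-fold. Lox stood at 552 CPM in PBS and 764 in MPSS, 1.38-fold [1.28 to 1.498], and Loxl2 was at 1.56 [1.20 to 2.03]. The laminin chain Lama4 was at 0.481 and Nid2 at 0.630, the receptors Ddr1 and Itga1 at 0.445 and 1.88 [1.00 to 3.69], Col7a1 and Col8a2 at 0.596 and 0.796, and the folding genes P3h3 and Fkbp14 at 1.35 and 1.26.

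**Figure D5:**
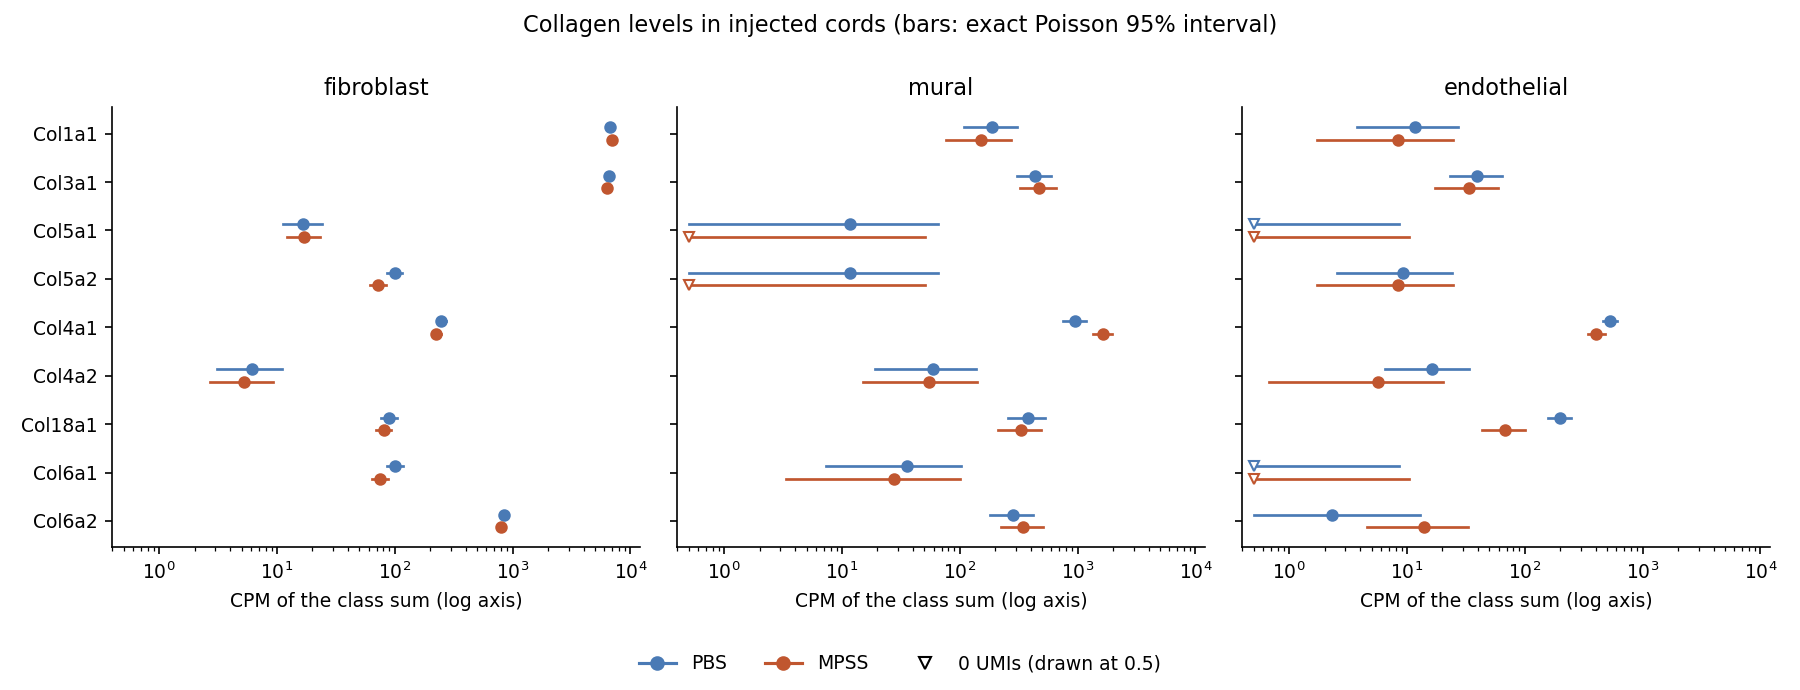
Points give the CPM of the summed class (log axis) in PBS and MPSS for 9 collagens, bars the exact Poisson 95% interval, and open triangles classes with 0 UMIs, drawn at 0.5. The fibroblast values lie close together, Col1a1 at 6745 and 7022 CPM, and Col18a1 in endothelial cells is lower in MPSS, at 67.5 against 198 CPM.

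Vessel cells of the injected cords were few. In 34 PBS and 32 MPSS endothelial cells Col18a1 stood at 198 CPM [158 to 245] and 67.5 [43.2 to 100], from 85 and 24 UMIs, which is 2.94-fold lower in MPSS [1.85 to 4.83]. As the mean over cells its log2 ratio was -0.76 in place of -1.56, so the call at 2-fold was lost. Col4a1 stood at 531 and 405 CPM, a ratio of 0.761 [0.614 to 0.942]. Mural markers in the same cells summed to 242 and 573 CPM, and their part in this was not tested. Of 3 measured members 0 were higher and 1 lower, against 5.43% and 9.02% of 5907 genes. Of 12 folding genes 1 was higher and 2 lower, and P4ha1 was 2.21-fold higher [1.32 to 3.80], P4hb was at 0.746, Itgb1 at 0.674, Adgrg1, a receptor for type III collagen, at 0.756, Lamb2 at 1.09 and Sparc at 0.875. In 13 and 17 mural cells Col4a1 stood at 953 and 1642 CPM, a ratio of 1.72 [1.29 to 2.31], and 1 cell held 33.3 and 28.6% of its UMIs. Col18a1 stood there at 377 and 331 CPM and Col3a1 at 435 and 469. None of 5 measured mural members was past 2-fold, against 10.6% and 8.82% of 2131 genes. Sparc was at 1.49, Pcolce at 1.61, Serpinh1 at 1.18, Itgb1 at 0.829 and Ppib at 0.828.

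The fibroblasts of the injected cords, clustered and numbered apart from the time course, fell into 3 clusters with unlike collagen levels. Cluster 8, led by Smoc2 and Alpl, held 56 PBS and 86 MPSS cells, cluster 14, led by Igf2, A2m and Aldh1a2, held 34 and 51, and cluster 18, led by Sfrp2, Comp and Aspn, held 33 and 27. Col1a1 stood at 2516 and 2804 CPM in cluster 8, 6295 and 5586 in cluster 14 and 15318 and 20822 in cluster 18, in PBS and MPSS. Col3a1 took the same order, from 3127 and 3320 in cluster 8 to 13649.8 and 16044 in cluster 18. The basement membrane chains were ordered otherwise. Col4a1 stood at 49.99 and 57.1 CPM in cluster 8, 777 and 609 in cluster 14 and 236 and 128 in cluster 18. Col18a1 stood at 361 and 260 CPM in cluster 14, above 17.0 and 4.97 in cluster 8 and 26.9 and 27.5 in cluster 18. The intervals of cluster 14 lay above those of both other clusters for these chains in both libraries. The share of the class in cluster 18 was 26.8% in PBS and 16.5% in MPSS, so the class value of Col1a1 mixes clusters in unlike parts.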

How the data were processed

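The authors deposited UMI counts per gene and cell, made with Cell Ranger 3.0.2 per the submitters' processing notes; the aligner's settings, genome and cell calling are not given in the sources used here. The labels name rat; of the names in the time-course tables, 28692 or 28615, 7652 are of mouse form, against 12 of 25054 in the injected ones. Gene names altered in the intact and day 1 tables were restored. A cell was used if it had 200 genes and 500 UMIs or more and a mitochondrial share no higher than 20%: all time-course cells, 1377 of 1513 in PBS and 2091 of 2339 in MPSS, with 9661552, 50635770, 72515788 and 30470794 UMIs from intact to day 7 and 15855840 and 23577932 in PBS and MPSS. Within each set, 2000 variable genes without collagens gave 30 components, 20 neighbours and Leiden clusters at resolution 1, without alignment of libraries. Clusters were named from fixed non-collagen markers; the naming thresholds were set after cluster shares were seen. A cell entered its cluster's class with at least 2 own markers and a larger share of that list than of any other. Scrublet marked 0 to 0.571% of cells and did not work as a doublet filter, so doublets were kept.

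Counts were summed per class and library and scaled to 1000000. Intervals are exact Poisson (levels), exact binomial (ratios) and Clopper-Pearson (shares), at 95%; they cover counting error only. A count of 0 was set to 3 counts over the class for a lower bound. Ratios were tested on simulated Poisson counts without spread between cells, so that test does not show how the intervals behave where cells are uneven. Members, lists and markers were chosen with earlier results of these data known. Named partner genes are the 2 per list and comparison with the largest absolute log2 ratio among those with at least 50 UMIs; likeness used log2 of CPM plus 10. Alternatives were other scalings, minimum counts, cell sums, gates, resolutions, filters and thinning. Python 3.11.15, scipy 1.17.1, scanpy 1.11.5, leidenalg 0.10.2, R 4.3.3 and edgeR 4.0.16 (TMM factors only) were used. Of the clusters without a class, 4 in the time course and 2 in the injected cords, only 1 of the time course is described; the others are not reported here and enter the shares of UMIs as clusters without a class.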

Additional observations from a re-analysis of the deposited data

How the results depend on the processing

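Over all settings 1198 of 1243 recomputed log2 ratios and 314 of 358 recomputed counts of members stayed close to the reported value, which means inside its 95% counting interval for a log2 ratio and within 1.5 times for a count. The members higher in fibroblasts numbered 5 at day 3, 10 at day 7 and 0 in MPSS against PBS, and no setting moved these by over 1.5 times. Counts at day 1 in fibroblasts, reported as 1 higher and 2 lower, became 2 and 1 with TMM or without the highest cell of each gene, 1 lower with median-of-ratios factors or a minimum of 50 UMIs, 2 higher as the mean over cells, and 0 lower with the cluster class alone. Mural day 1, reported as 1 and 1, gave 2 higher with TMM, median-of-ratios, a total without mitochondrial and ribosomal genes, the mean over cells, or without the highest cell. It gave 2 lower with no minimum, 0 lower at a minimum of 50 or without the highest cell, and 0 and 0 at Leiden resolution 0.5. Mural day 3, reported as 3 and 1, gave 0 lower with TMM, median-of-ratios, the reduced total, a minimum of 50 or without the highest cell, 3 lower with no minimum, 2 lower as the mean over cells, 1 higher with the cluster class alone and 0 higher at resolution 0.5. Mural day 7, reported as 2 and 0, gave 1 lower with no minimum, 1 higher at a minimum of 50, 0 and 1 with the cluster class alone, and 0 and 3 at resolution 0.5. Endothelial day 1, reported as 5 and 1, gave 3 and 0 at a minimum of 50 or as the mean over cells, and 0 lower without the highest cell. The endothelial counts higher at days 3 and 7, reported as 6 and 4, were 2 and 0 at a minimum of 50, which leaves fewer genes tested. In MPSS against PBS, mural cells gave 1 lower as the mean over cells, and endothelial cells 1 higher and 2 lower with no minimum and 2 lower without the highest cell.

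Among log2 ratios past 2-fold, 3 changed sign, all at resolution 0.5, which leaves 3 intact mural cells: Col4a1 at days 3 and 7 to -0.19 and -1.68, and Col18a1 at day 3 to -0.10. At days 3 and 7 that setting kept as many mural cells as the smooth muscle-type cluster held. Smaller ratios that changed sign include fibroblast Col1a1 at day 1 to 0.02 and endothelial Col4a1 at day 7 to 0.03 with TMM, and in MPSS fibroblasts Col1a1 to -0.02 without the highest cell and -0.12 as the mean over cells, and Col3a1 to 0.04 with TMM. TMM moved the median log2 ratio of all genes in fibroblasts from -0.13, -0.07 and 0.03 to 0.13, 0.15 and 0.15 at days 1, 3 and 7, and in mural cells at day 3 from -0.17 to 0.37. With each library clustered alone no mural value could be had for MPSS against PBS. Where no construction shows it, the cause was not tested. No paired analysis was possible because each group holds 1 library. The 14 mural cells and 34 fibroblasts of intact cord limit the ratios of those classes.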

Other observations

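One day 7 cell of the fibroblast cluster, outside the gate and chosen after its values were seen, held 925 Col1a1 UMIs among its 8260, or 11.2%, and 0 of Col3a1. It carried 4 fibroblast markers, and also 301 UMIs of Bglap, 158 of Bglap2, 19 of Ibsp, 12 of Ifitm5, 27 of Col11a1 and 19 of Col11a2, of which Bglap and Ibsp are known as bone matrix genes. It is 1 of the 27 cells that missed the gate there, and it held 925 of their 1394 Col1a1 UMIs. In the PBS library 1 cell of a phagocyte cluster, outside the gate, held 399 Col1a1 and 340 Col3a1 UMIs among 28771, with 14 fibroblast markers.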
